A study of Saccharomyces cerevisiae with 12 samples.

Results

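The nuclear genes of oxidative phosphorylation were followed in total RNA from synchronized budding yeast, Saccharomyces cerevisiae. Members were the nuclear genes whose names are COX, ATP or QCR followed by a number, together with SDH1 to SDH4, COR1, RIP1, CYT1, CYC1 and CYC7, which gave 53 of the 5798 genes measured. By role they are 4 genes of complex II, 9 of complex III, 2 of cytochrome c, 9 of complex IV, 10 for the assembly of complex IV, 13 of the ATP synthase and 6 for the assembly or expression of the ATP synthase. The 6 groups of 2 biological replicates each were wild-type cells with FU, the rrp6 mutant and wild-type cells without FU, at 100 min and at 40 min after synchronization. The series title gives FU as 5-fluorouracil, an anti-cancer pyrimidine analogue. RRP6 encodes a 3′ exonuclease of the nuclear exosome, the complex that trims and degrades many nuclear RNAs. The sources used here do not give the strain background, the mating type, the FU dose, when FU was added or how the cells were synchronized.

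Oxidative phosphorylation takes electrons from succinate (complex II) and ubiquinol (complex III) through cytochrome c to oxygen (complex IV), and the ATP synthase uses the proton gradient that complexes III and IV build. Budding yeast has no proton-pumping complex I. A few core subunits are encoded in the mitochondrial genome, and the nuclear genome encodes the others together with the factors that insert haem and copper or assemble the complexes. In yeast, glucose holds many of these nuclear genes down, the Hap2/3/4/5 complex (which binds CCAAT boxes) activates many of them in respiring cells, and the RNA-binding protein Puf3 binds mRNAs of many mitochondrial proteins after the stop codon. Cytochrome c and subunit 5 of complex IV each have an alternative gene: CYC1 and COX5A are the main genes in air, and CYC7 and COX5B are known as the genes favoured at low oxygen.

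All levels are read densities on the deposited scale, in reads per nucleotide of the gene after 1 scaling factor per library. Differences are on the log2(density + 0.0120173) scale, in log2 units ± standard error (SE), and called when the adjusted p of limma lies under 0.05. Values after ± beside a density are standard deviations with n = 2. Between 20102931 and 27498217 reads lay on all features of a library, and no member held fewer than 31 reads in a library (CYC7, in wild type at 100 min, replicate 2). The deletion was visible in RRP6 itself: its densities at 100 min were 1.49 and 1.17 with FU, 0.0507 and 0.0696 in rrp6, and 0.951 and 0.868 in wild type. At 40 min FU libraries had 1.96 and 1.72, rrp6 libraries 0.0675 and 0.0781, and wild-type libraries 1.30 and 1.07. The 100 most abundant genes held 36.1% to 38.7% of gene reads with FU and 37.4% to 38.9% in rrp6, against 40.4% to 44.3% in wild type. On this scale the median gene lay above wild type, by 0.30 with FU and 0.45 in rrp6 at 100 min, and by 0.37 with FU and 0.45 in rrp6 at 40 min. With median of ratios scaling those medians were 0.002, -0.006, 0.016 and -0.013, and member counts are given on both scales. These are mixed cultures, so fewer cells that express a gene and less of its RNA per cell cannot be told apart, and p-values measure only the spread between these samples.

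Both 40 min groups of wild-type cells had 1 library that stood apart. The snoRNA share of reads was 10.06% and 20.86% with FU and 11.68% and 20.24% in wild type at 40 min (replicates 1 and 2), against 9.99% to 15.4% in the other 8 libraries. The members moved with it. Of the 53 members, 44 were higher in replicate 1 than in replicate 2 with FU at 40 min, with a median difference of 0.42 against 0.21 over all genes. In wild type at 40 min 52 were higher in replicate 1, with a median of 0.58 against 0.29. SDH1, the flavoprotein subunit of complex II, was furthest apart, by 1.71 with FU and 2.78 in wild type. The part of the snoRNA share in the results at 40 min was not tested, and counts without those 2 libraries are given beside the results. Counts with 1 library left out are given without the share of all genes called in the same fit. They show how far the calls depend on 1 library, and do not compare the members with other genes.

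Levels spanned 150.6-fold among the members, and 43 of the 53 lay above the median gene (0.458). The order followed role. The medians over all 12 libraries were 5.41 for complex IV subunits, 3.88 for complex III, 3.49 for the ATP synthase and 1.04 for complex II, against 0.398 for the factors that assemble complex IV and 0.350 for those of the ATP synthase. CYC1, the major cytochrome c, was the most abundant member at 17.8, and COX23, a small protein that helps deliver copper to complex IV, was the least abundant at 0.118. Within the subunit lists the extremes were SDH3 (1.5) and SDH1 (0.489) in complex II, QCR8 (6.70) and COR1 (1.54) in complex III, COX9 (8.11) and COX5B (0.325) in complex IV, and ATP2 (9.74) and ATP3 (1.56) in the ATP synthase. SDH3 encodes a membrane anchor of complex II, QCR8 and COR1 encode a small and a core subunit of complex III, COX9 encodes a small subunit of complex IV, and ATP2 and ATP3 encode the beta and gamma subunits of the catalytic head. Among assembly genes they were COX14 (1.26, a regulator of Cox1 synthesis) and COX23, and ATP22 (0.566, which promotes translation of the mitochondrial ATP6 mRNA) and ATP12 (0.281, a chaperone of the catalytic head). Subunits of one complex were far from equal as RNA: the beta subunit ATP2 stood at 204% and 204% of the alpha subunit ATP1 with FU, 186% and 185% in rrp6, and 221% and 253% in wild type at 100 min.

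**Figure D1:**
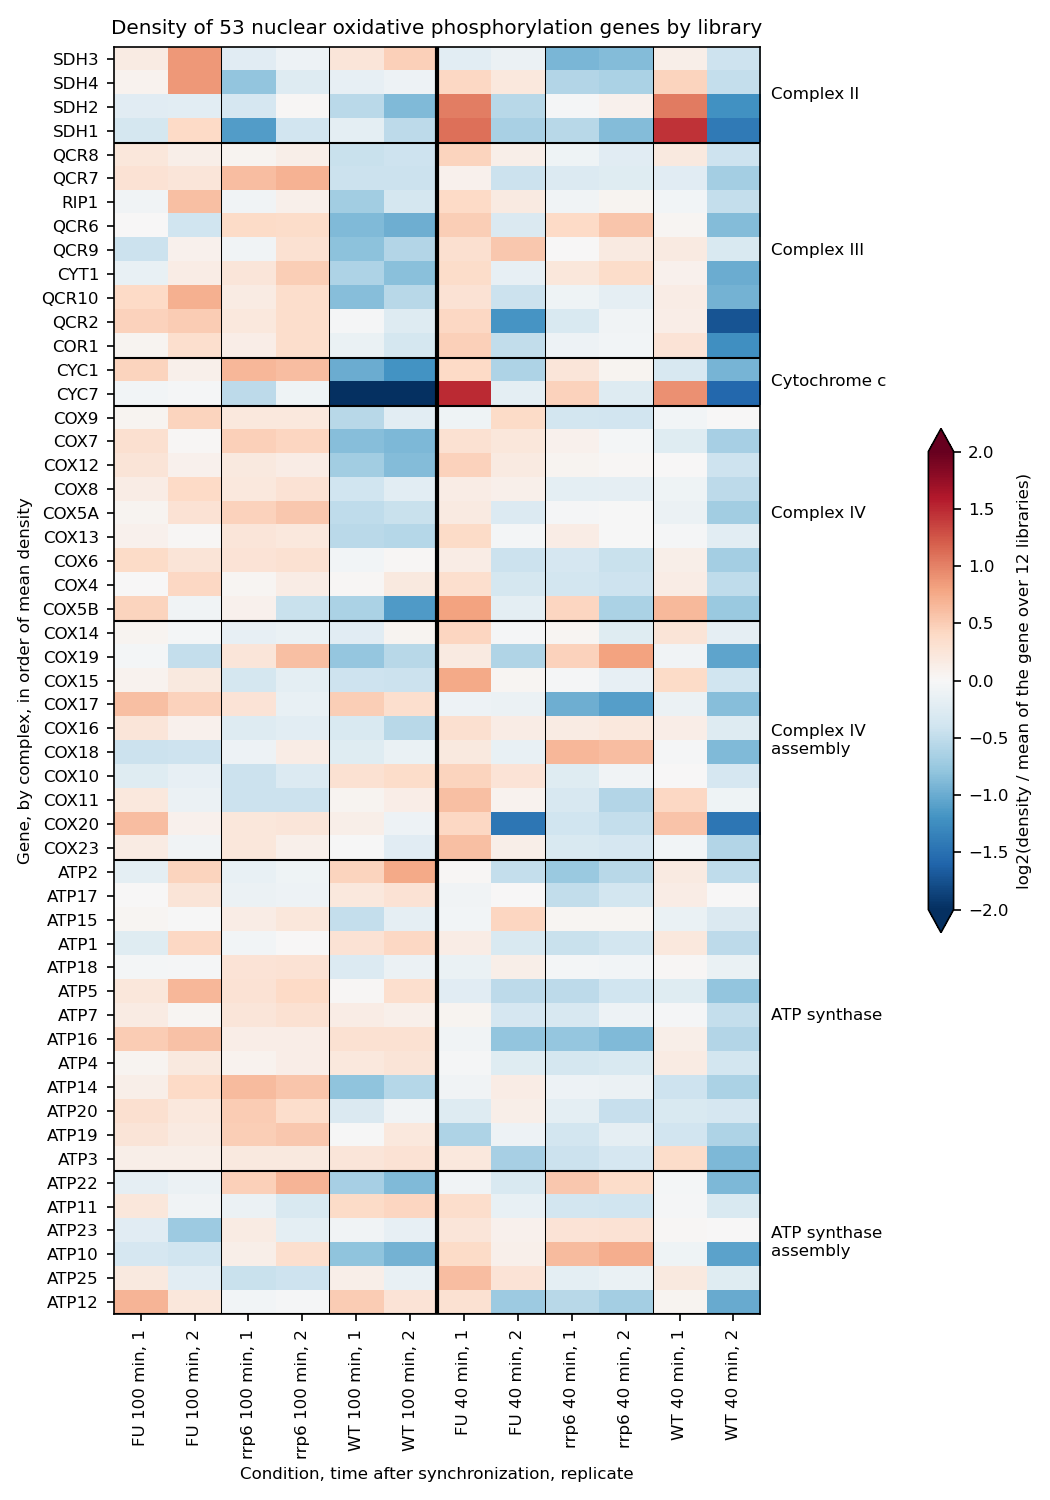
Each row is 1 of the 53 genes, ordered by complex, and each column is 1 of the 12 libraries; colour is log2 of the density over the gene's mean of all libraries, clipped at plus and minus 2. The columns of replicate 2 with FU and in wild type at 40 min are paler or bluer over most rows than their replicate 1, and CYC7 in both wild-type libraries at 100 min lies at the low end of the scale.

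The comparison of the rrp6 mutant with wild type at 100 min asks which members differ in cells without Rrp6 at the later time, and it gave the most calls. CYC1, 5 genes of complex III and 6 of complex IV were higher in rrp6, by 1.47- to 3.31-fold in mean density among these genes. The assembly genes COX10 and ATP11 were lower. In all, 20 members were called higher and 2 lower, where 34.5% of all genes kept were called higher and 5.15% lower. The median member was at 0.40 and the median gene at 0.45, and 25 of 53 members lay above the median gene. On the median of ratios scale 10 members were called higher and 14 lower (16.1% and 15.6% of genes), with a median of -0.08. The groups did not overlap for 48 members, 34 with both rrp6 libraries above both wild-type libraries and 14 below (64.2% and 26.4% of members, against 66.2% and 17.4% of genes).

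The genes of cytochrome c were both called. CYC1 (YJR048W, chr10:526335-526664, plus strand) had densities of 28.2 and 27.2 in rrp6, against 8.97 and 7.80 in wild type. The rrp6 libraries lay far above those of wild type, by 1.73 ± 0.32 (adjusted p = 0.00156), or 3.31-fold. CYC7 (YEL039C, chr5:79636-79977, minus strand) had densities of 0.643 and 0.865 in rrp6, against 0.205 and 0.0832 in wild type. The groups were apart by 2.40 ± 0.78 (adjusted p = 0.0248). The wild-type libraries themselves differed more than 2-fold there, and the CYC7 call was lost without either rrp6 library or without replicate 2 of wild type at 100 min.

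In complex III, which passes electrons from ubiquinol to cytochrome c, 5 of 9 genes were called higher and none lower, with a median of 0.82. Over all genes kept, 34.5% were called higher and 5.15% lower. Under median of ratios scaling 2 of the 9 (QCR7 and QCR6) were called higher (16.1% of genes), with a median of 0.33 over the 9. QCR7 (YDR529C, chr4:1496165-1496548, minus strand), a small subunit, had densities of 8.13 and 8.51 in rrp6, against 3.90 and 3.91 in wild type. The replicates were nearly equal and the groups well apart, by 1.09 ± 0.21 (adjusted p = 0.00161). QCR6, the acidic hinge subunit, had 5.14 and 5.09 in rrp6, against 2.12 and 2.00 in wild type, a difference of 1.31 ± 0.32 (adjusted p = 0.0068). The others called were QCR9 (0.82), CYT1 (1.09), the gene of cytochrome c1, and QCR10 (0.96). The rows of QCR9 (201 coding nt of 414) and QCR10 (234 of 297) each span an intron, and the part of unspliced RNA was not tested. Summed over the 9 genes, the densities of complex III were 37.7 and 41.5 in rrp6, against 22.1 and 22.9 in wild type.

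Complex IV, cytochrome c oxidase, had 6 of 9 subunit genes called higher and none lower (34.5% and 5.15% of genes), with a median of 0.66. COX7 (YMR256C, chr13:778945-779127, minus strand), a small subunit, had densities of 9.62 and 9.36 in rrp6, against 3.82 and 3.73 in wild type. The pairs were tight and more than 2-fold apart, by 1.33 ± 0.18 (adjusted p = 0.000265). COX12, another small subunit, followed at 0.95 ± 0.18 (adjusted p = 0.00175), with 6.43 and 6.18 in rrp6 and 3.45 and 3.06 in wild type. COX13 was at 0.79 ± 0.17 (adjusted p = 0.00323), COX5A at 0.98 ± 0.22 (adjusted p = 0.00421), COX9 at 0.60 and COX8 at 0.55. Under median of ratios scaling COX7, COX12 and COX5A were called higher (16.1% of genes), with a median of 0.20 over the 9 genes. COX4, a subunit whose row in the deposited table is longer than its coding sequence, was at -0.01.

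In the ATP synthase 4 of 13 subunit genes were called higher (ATP14, ATP20, ATP18 and ATP15) and none lower, with a median of 0.15. The share called higher, 30.8%, was near the 34.5% of all genes kept, of which 5.15% were called lower. Under median of ratios scaling 1 was called higher (ATP14) and 5 lower (ATP1, ATP2, ATP4, ATP16 and ATP17), with a median of -0.34. On that scale 16.1% of genes were called higher and 15.6% lower. ATP14 (YLR295C, chr12:721999-722373, minus strand), subunit h, had densities of 4.58 and 4.36 in rrp6, against 1.69 and 1.99 in wild type. Of all members it had the smallest adjusted p in this comparison (1.28 ± 0.17, adjusted p = 0.000224). Its row shares 32 nt with a dubious open reading frame on the same strand. ATP2, the beta subunit, had 8.79 and 9.17 in rrp6, against 13.3 and 16.5 in wild type, a difference of -0.72 that was not called (adjusted p = 0.0587) on the deposited scale. Complex II had none of 4 genes called in this comparison, with a median of -0.37. Both SDH3 and SDH4 were called lower under median of ratios scaling.

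Assembly genes moved both ways. Of the 16 genes that assemble complex IV or the ATP synthase, 3 were called higher (ATP22, ATP10 and COX19) and 2 lower (COX10 and ATP11). The median of the 16 was 0.12. In the 37 genes of subunits and cytochrome c 17 were called higher and 0 lower, with a median of 0.52. All genes kept had 34.5% called higher and 5.15% lower. ATP22 had densities of 0.784 and 0.909 in rrp6, against 0.356 and 0.306 in wild type (1.32 ± 0.26, adjusted p = 0.00198). ATP10, needed for assembly of the membrane part of the ATP synthase, had 0.364 and 0.423 in rrp6, against 0.193 and 0.175 in wild type (1.05 ± 0.28, adjusted p = 0.0108). In the other direction COX10, the haem O synthase, had 0.222 and 0.247 in rrp6, against 0.370 and 0.387 in wild type. It fell by 0.66 ± 0.19 (adjusted p = 0.0136). ATP11, a chaperone of the beta subunit, had 0.442 and 0.389 in rrp6, against 0.631 and 0.646 in wild type, and fell by 0.61 ± 0.21 (adjusted p = 0.0317). With median of ratios scaling both sets were mixed. Of the 16 assembly genes 2 (ATP10 and ATP22) were called higher and 7 lower, COX10 and ATP11 among them, with a median of -0.35. Of the 37 genes of subunits and cytochrome c 8 were called higher and 7 lower, with a median of 0.03. Over all genes kept the shares on that scale were 16.1% and 15.6%.

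ATP14, COX7, CYC1, QCR7, COX12, ATP22, COX13, COX5A and QCR6 were called in rrp6 at 100 min whichever of the 12 libraries was left out. The count of members called higher was 12 without replicate 1 and 10 without replicate 2 of rrp6 at 100 min, and 12 without replicate 1 of wild type at 100 min. The count called lower was 4 without either FU library at 100 min, 0 without replicate 1 of rrp6 or either library of wild type at 100 min, and 1 without replicate 2 of rrp6 at 100 min. Without the 2 libraries of high snoRNA share at 40 min, 27 were called higher and 5 lower, and 49% of genes higher and 9.24% lower in the same fit. ATP18, called higher at 0.48, was at -0.01 under median of ratios scaling.

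**Figure D2:**
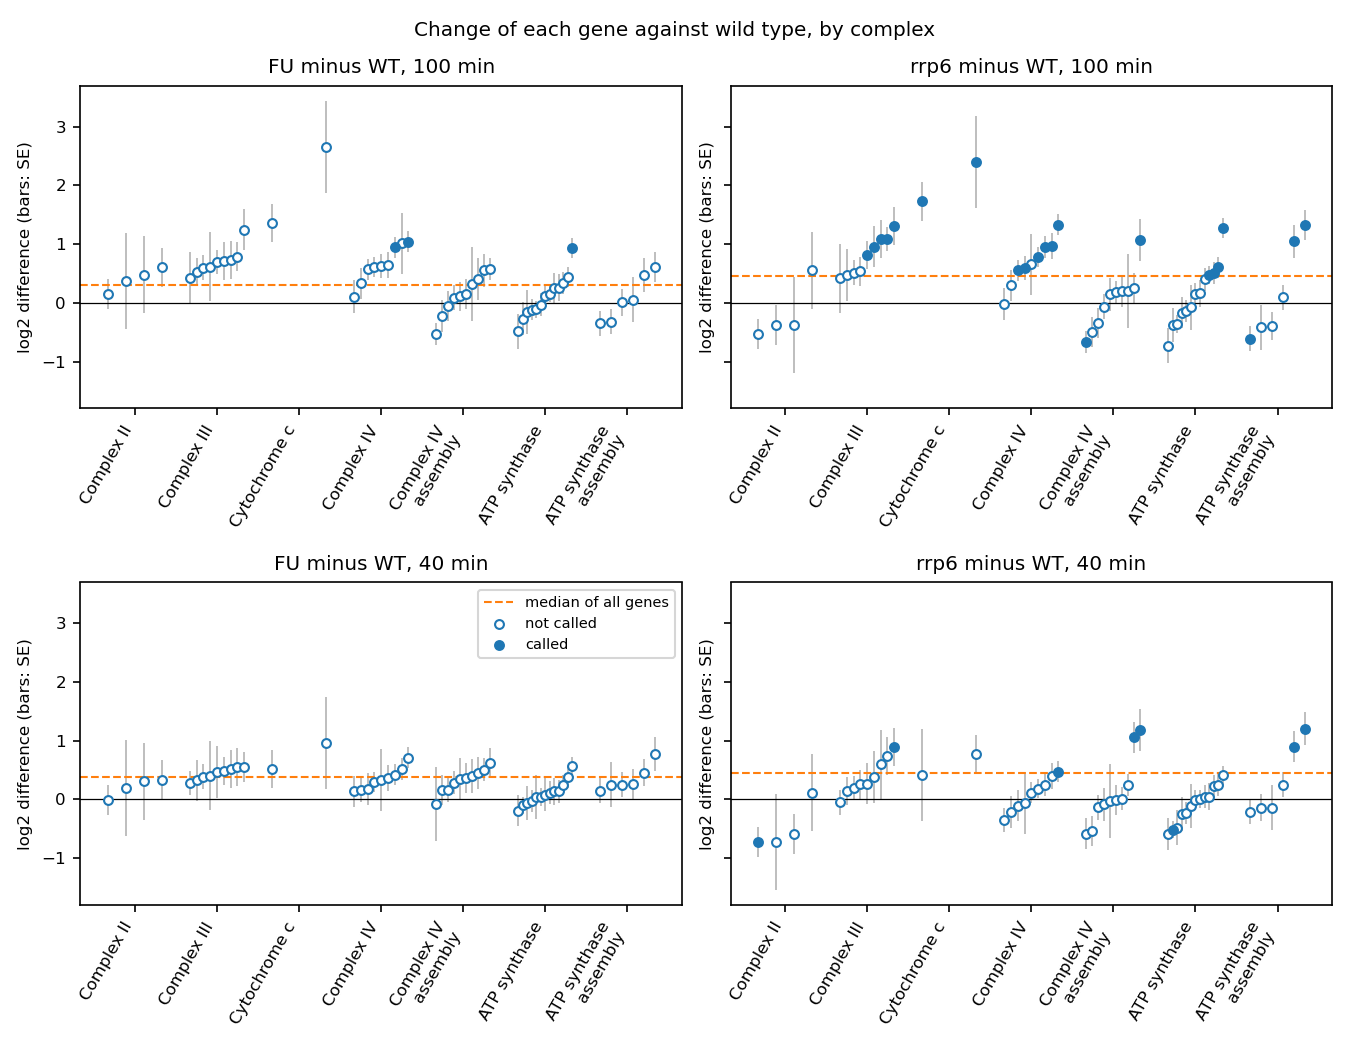
Each panel is 1 comparison with wild type, with FU and rrp6 at 100 min above and at 40 min below; points are the log2 difference of each of the 53 genes on the deposited scale with its SE, grouped by complex, filled where called, and the orange dashed line is the median of all genes. In rrp6 at 100 min the filled points of cytochrome c, complex III and complex IV lie above the line of 0.45, while COX10 and ATP11 are filled below 0; under median of ratios scaling 14 members were called lower there.

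The sequences before the coding regions were searched because members of the same complexes were called together. In the 500 nt before the start codon, on both strands, the motif ACCAATNA, a form of the site of Hap2/3/4/5, stood in 18 of 52 members (34.6%), against 8.63% of 5736 genes of the R64 reference searched the same way; COX4 was left out because its span differs from R64. By role, 16 of 36 subunit and cytochrome c genes held it and 2 of 16 assembly genes. In 14 of the 18 genes the match lay within 130 to 250 nt of the start codon. The sites of the 6 genes called higher in rrp6 at 100 min that hold the motif are shown 5′ to 3′ along the motif's strand, with the motif in capitals and 8 nt on each side:

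QCR7: ttgttttgACCAATCAggagcgac
COX12: taacattgACCAATCAattttcag
COX13: tttttcccACCAATGAgaggcggt
ATP14: atacacgaACCAATTAtgcatcat
COX8: cggtttgcACCAATCAtacgagag
ATP15: ttatacgaACCAATGAaatttgat

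In R64 these lie at chr4:1496715-1496738 (minus strand, motif 182 nt before the start codon of QCR7), chr12:225363-225386 (minus, 206 nt, COX12), chr7:144587-144610 (plus, 213 nt, COX13), chr12:722556-722579 (minus, 198 nt, ATP14), chr12:910152-910175 (minus, 202 nt, COX8) and chr16:29937-29960 (plus, 134 nt, ATP15). The 250 nt before the start codon of QCR7 (R64, chr4:1496549-1496798, minus strand, 5′ to 3′) hold this motif and, 143 nt before the start codon, GCGGGG, the core of the site of the glucose repressor Mig1. Both are in capitals:

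QCR7 promoter: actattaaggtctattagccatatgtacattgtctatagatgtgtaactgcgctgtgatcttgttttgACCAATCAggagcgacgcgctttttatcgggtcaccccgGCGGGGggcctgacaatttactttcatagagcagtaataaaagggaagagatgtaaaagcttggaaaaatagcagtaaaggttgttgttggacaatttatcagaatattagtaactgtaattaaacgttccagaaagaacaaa

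The presence of the Hap motif did not separate the members in rrp6 at 100 min: the median difference was 0.44 in the 18 with it (6 called higher, 0 lower) and 0.34 in the 34 without (14 higher, 2 lower). GCGGGG stood in 9 members (17.3%, against 5.82% of genes) and ATTGTTC, the core of the site of the repressor Rox1, in 10 (19.2%, against 11.9%). HAP4, which encodes the activating subunit of the Hap complex, had densities of 2.75 and 3.03 in rrp6 at 100 min, against 1.42 and 1.02 in wild type, and was called higher (1.25 ± 0.37, adjusted p = 0.0157).

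The 200 nt after the stop codon divided the members differently. TGTANATA, the site of Puf3, was searched there on the sense strand and stood in 18 of 52 members (34.6%, against 14.6% of genes). It stood in 13 of 16 assembly genes, and in 5 of 36 genes of subunits and cytochrome c (ATP1, SDH1, COX8, ATP18 and ATP19). Sites are shown for both called lower members and for COX11, ATP25 and COX17. These 3 assembly genes were called lower in rrp6 at 100 min under median of ratios scaling. COX14, ATP12 and ATP1, also called lower on that scale, hold the motif too, as do COX8 and ATP18, called higher on the deposited scale. Their sites are not shown. The other members called lower under median of ratios scaling, ATP2, ATP4, ATP16, ATP17, SDH3 and SDH4, do not hold the motif. The motif is in capitals with 6 nt on each side, or 1 nt before the first site of COX11, which begins 2 nt after the stop codon:

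COX10, first site: taatctTGTAAATAaatatt
COX10, second site: aaataaTGTACATAcgcaca
ATP11: gacaccTGTAAATAaaatac
COX11, first site: tTGTAAATAcaaagt
COX11, second site: attcaaTGTACATAaatact
ATP25: attaccTGTATATAatatct
COX17, first site: atttctTGTATATAtaagaa
COX17, second site: actaccTGTAAATAtgtgcg

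They lie in R64 at chr16:224288-224307 and chr16:224248-224267 (minus strand, motifs 52 and 92 nt after the stop codon of COX10), chr14:43255-43274 (minus, 56 nt, ATP11), chr16:302619-302633 and chr16:302635-302654 (plus, 2 and 23 nt, COX11), chr13:460750-460769 (minus, 8 nt, ATP25), chr12:131160-131179 and chr12:131115-131134 (both minus, 32 and 77 nt, COX17). In rrp6 at 100 min the median difference was 0.02 in the 18 members with the Puf3 motif (2 called higher, 2 lower) and 0.60 in the 34 without it (18 higher, 0 lower). Over all genes it was 0.28 with the motif and 0.48 without. The 3 assembly genes without the motif, COX19, ATP22 and ATP10, were all called higher, and of the 13 with it none was called higher and 2 were called lower. Among genes of subunits and cytochrome c the split was small. The median there was 0.40 in the 5 with the motif (2 called higher) and 0.55 in the 31 without it (15 higher). Motif and role thus overlapped in these members, and their parts were not tested. With FU at 100 min the medians were 0.10 with and 0.60 without the motif in the members, and 0.21 and 0.31 over all genes. A match is a description of the letters in these windows, and the split by motif was made with the members' values in view and has no test.

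Gene length went along with role. The median length was 447 nt in the 37 genes of subunits and cytochrome c and 871.5 nt in the 16 assembly genes. Across members, the difference between rrp6 and wild type at 100 min had a Spearman correlation of -0.446 with length (n = 53), against 0.0588 over all 5725 genes kept; these are genes of the same libraries, not replicates. Within roles it was -0.491 in subunits and cytochrome c (n = 37) and -0.203 in assembly genes (n = 16). The 27 members of at most 525 nt had a median of 0.60 and the 26 longer ones 0.04, against 0.57 and 0.44 for all genes split at the same length. With FU at 100 min the correlation with length was -0.381 across members and -0.0471 over all genes. At 40 min it was nearer 0 across members, -0.0887 with FU and -0.14 in rrp6, with 0.0863 and 0.172 over all genes, and 0.176 in the assembly genes with FU.

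**Figure D3:**
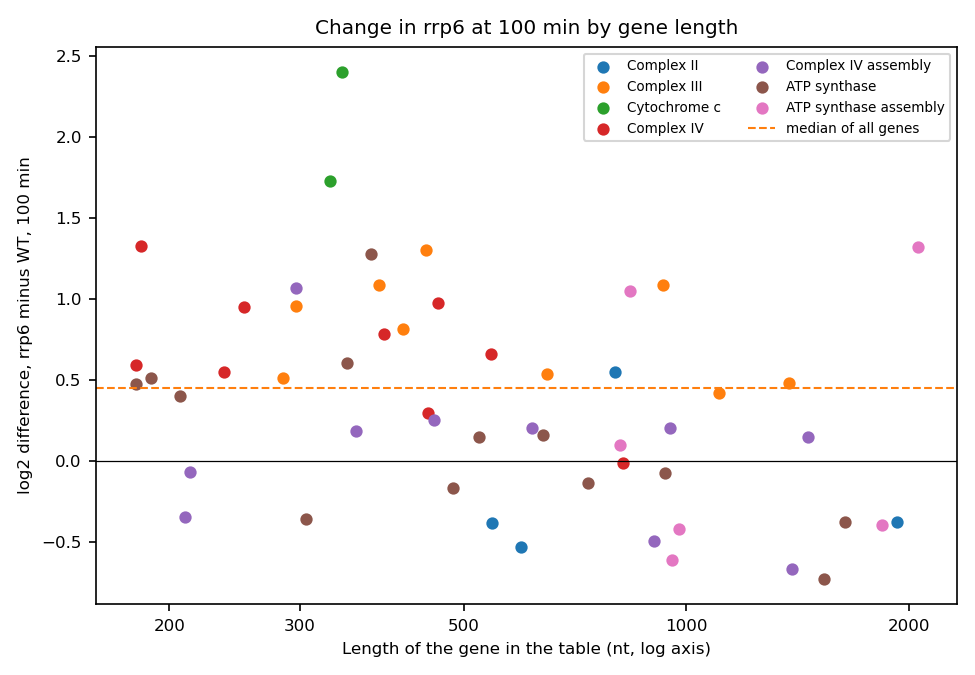
The horizontal axis is gene length in nt on a log scale and the vertical axis the log2 difference, rrp6 minus wild type at 100 min, for the 53 genes, coloured by role. The short genes of cytochrome c, complex III and complex IV lie mostly above the long genes of complex II, the catalytic head of the ATP synthase and the assembly factors; the 27 genes of at most 525 nt have a median of 0.60 and the 26 longer ones 0.04.

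The comparison of FU with wild type at 100 min asks what the drug changes at the later time. COX7, COX12 and ATP14 were called higher with FU and no member lower, where 1.94% of genes were called higher and 0.769% lower. COX7 had densities of 8.61 and 7.0 with FU, against 3.82 and 3.73 in wild type (1.04 ± 0.18, adjusted p = 0.022). COX12 had 6.66 and 5.92 with FU, against 3.45 and 3.06 in wild type (0.95 ± 0.18, adjusted p = 0.035). ATP14 had 3.21 and 3.88 with FU, against 1.69 and 1.99 in wild type (0.94 ± 0.17, adjusted p = 0.0249). The libraries with FU were 1.93- to 2.07-fold those of wild type in mean density for these 3 genes, with no overlap. Under median of ratios scaling none of the 3 was called (adjusted p = 0.0632, 0.0719 and 0.23), and 0 members were (0.507% of genes higher and 1.03% lower); without adjustment, p lay under 0.05 for 7 members higher and 7 lower (7.2% and 8.3% of genes).

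The median member was at 0.40 with FU at 100 min, the median gene at 0.30, and 31 of 53 members lay above the median gene. Unadjusted p-values under 0.05 were met by 17 members higher and 1 lower, and by 19.2% of genes higher and 2.64% lower. All 9 genes of complex III lay above the median gene, with a median of 0.70, and the medians of the other lists were 0.63 for complex IV, 0.43 for complex II, 0.13 and 0.03 for the assembly of complex IV and of the ATP synthase, and 0.11 for the ATP synthase. CYC1 had densities of 24.1 and 19.0 with FU, against 8.97 and 7.80 in wild type, and was at 1.35 ± 0.32 without a call (adjusted p = 0.0679). CYC7 had 0.887 and 0.907 with FU, against 0.205 and 0.0832 in wild type, and was at 2.66 ± 0.78 without a call (adjusted p = 0.105). For both genes the libraries with FU lay above those of wild type. A fit with the replicate number as a block called both (adjusted p = 0.0202 for CYC1 and 0.048 for CYC7), which gave 5 members higher where it called 4.14% of genes higher. The lowest differences were COX10 at -0.52 (adjusted p = 0.161) and ATP2 at -0.48 (adjusted p = 0.362), neither called. For fits with 1 library left out the share of all genes called is not given. The count of members called higher was 0 without either FU or either wild-type library at 100 min or without any 1 of the 4 rrp6 libraries, 6 without either wild-type library at 40 min, and 19 higher and 1 lower without the 2 libraries of high snoRNA share at 40 min, where the same fit called 20.1% of genes higher and 2.36% lower.

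In the rrp6 mutant at 40 min, the question is the same at the earlier time. Of the 16 assembly genes 4 were called higher and 0 lower, with a median of -0.01, a share of calls below that over all genes. Under median of ratios scaling 2 of these 16 were called higher and 5 lower. ATP10, COX18, ATP22 and COX19 were called higher with QCR6 and COX7, and ATP17 and SDH3 lower: 6 members higher and 2 lower, where 32.3% of genes were higher and 5.26% lower. ATP10 had densities of 0.522 and 0.556 in rrp6, against 0.318 and 0.161 in wild type (1.21 ± 0.28, adjusted p = 0.00574). COX18, which exports the tail of Cox2 across the inner membrane, had 0.497 and 0.482 in rrp6, against 0.309 and 0.169 in wild type (1.06 ± 0.27, adjusted p = 0.00831). Both rrp6 libraries lay above both of wild type for these genes, and their calls held whichever of the 12 libraries was left out. ATP22 was at 0.90 (adjusted p = 0.0153), COX19, a copper-related assembly protein, at 1.18 (adjusted p = 0.0189) and QCR6 at 0.89 (adjusted p = 0.0401). COX7 was at 0.47 (adjusted p = 0.0486), and at -0.02 under median of ratios scaling.

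ATP17, subunit f of the ATP synthase, had 4.24 and 4.63 in rrp6 at 40 min, against 6.64 and 6.02 in wild type, and fell by 0.51 ± 0.15 (adjusted p = 0.0151). SDH3 had 0.798 and 0.822 in rrp6, against 1.62 and 1.12 in wild type, and fell by 0.73 ± 0.25 (adjusted p = 0.0332). The median member was at 0.05 with the median gene at 0.45, and 9 of 53 members lay above the median gene; all 13 subunit genes of the ATP synthase lay at or below it. With median of ratios scaling 2 members were called higher (ATP10 and COX18) and 17 lower (12.3% and 13.3% of genes), with a median of -0.44. CYC1 had 21.1 and 18.5 in rrp6, against 14.2 and 9.36 in wild type, and was not called (0.78, adjusted p = 0.0666). Wild-type replicates at 40 min were far apart for many of these genes, and the values turn on them: without wild-type replicate 1 the median member was at 0.33 with 13 called higher and 0 lower, and without replicate 2 at -0.27 with 2 higher and 8 lower. Without either rrp6 library at 40 min 3 were called higher. The count lower was 0 without its replicate 1, and 1 without its replicate 2 or without either rrp6 library at 100 min. Without the 2 libraries of high snoRNA share it was 4 higher and 17 lower, with 32.1% of genes higher and 11.9% lower.

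With FU at 40 min limma called 0 members in either direction, where 1.34% of genes were called higher and 0.454% lower. Before adjustment, p lay under 0.05 for 7 members higher and 0 lower, where 22.8% of genes were higher and 2.34% lower on that criterion, a larger share than among the members. No member was called with limma-voom on the recovered reads or under median of ratios scaling (0.0175% of genes higher and 0.0699% lower). A fit with the replicate number as a block called COX7 higher and 0 members lower (4.98% of genes higher and 0.996% lower). The median member was at 0.31 and the median gene at 0.37, and for 39 of 53 members the groups overlapped (73.6%, against 56.9% of genes). Over the genes kept, deviations of same-numbered replicates correlated at 0.869 between FU and wild type at 40 min. The overlap of groups does not take such pairing into account. The largest positive differences were CYC7 at 0.96 (adjusted p = 0.42; 2.60 and 0.803 with FU against 1.73 and 0.310 in wild type) and ATP10 at 0.78 (adjusted p = 0.126). The most negative were ATP16, the delta subunit, at -0.19 and ATP17 at -0.10. Without the 2 libraries of high snoRNA share the count was also 0 (1.31% of genes higher and 0.507% lower). The median was 0.67 without replicate 1 and 0.0049 without replicate 2 of wild type at 40 min.

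The direct comparison of FU with rrp6 asks where the treatments differ. At 100 min SDH4, a membrane anchor of complex II, was called higher with FU (6.38% of genes were called higher and 16.4% lower). It had densities of 1.10 and 1.92 with FU, against 0.609 and 0.876 in rrp6 (0.98 ± 0.34, adjusted p = 0.0402). No member was called lower, and the lowest were ATP22 at -0.71 (adjusted p = 0.0513; 0.50 and 0.524 with FU against 0.784 and 0.909 in rrp6) and COX19 at -0.66. CYC1 was at -0.37, CYC7 at 0.26 and COX5A at -0.33, none called, with 24.1 and 19.0 with FU against 28.2 and 27.2 in rrp6 for CYC1. At 40 min COX17, the copper chaperone of complex IV, was called higher with FU (4.58% of genes higher, 9.28% lower), with 0.459 and 0.454 with FU against 0.251 and 0.228 in rrp6 (0.90 ± 0.25, adjusted p = 0.0208). The replicates were close to each other and the groups 1.91-fold apart in mean density. The lowest at 40 min, neither called, were COX19 at -0.83 and ATP22 at -0.63.

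Most members lay above the median gene in these comparisons, 34 of 53 at 100 min and 43 of 53 at 40 min. Under median of ratios scaling 7 members were called higher with FU at 100 min (COX16, SDH4, ATP25, SDH3, COX17, COX11 and ATP16, with 9.85% of genes higher and 11.8% lower) and 9 at 40 min (COX17, COX11, ATP25, QCR8, COX23, ATP11, COX10, SDH4 and SDH3, with 6.15% and 7.25%), and none lower at either time. The single call at 100 min was lost without replicate 2 of FU, without any 1 rrp6 library or without either wild-type library at 100 min. There were 2 calls higher without replicate 1 of FU at 100 min, with 1 lower, and 2 higher and 2 lower without either wild-type library at 40 min. At 40 min the count was 0 without either rrp6 library at that time, 2 without replicate 2 of FU, and 4 without either FU library at 100 min or either wild-type library at 40 min, where 3 were called lower. Without the 2 libraries of high snoRNA share there were 5 calls higher and 8 lower at 100 min (13.3% and 26.8% of genes) and 21 higher and 1 lower at 40 min (13.7% and 12.9%).

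The genes of the alternative isoforms kept their order of abundance in every library. CYC7 had 3.68% and 4.78% of the density of CYC1 with FU, 2.28% and 3.18% in rrp6, and 2.29% and 1.07% in wild type at 100 min. At 40 min it had 11.1% and 6.91% with FU, 5.99% and 4.17% in rrp6, and 12.2% and 3.31% in wild type. The shares at 40 min overlapped between the groups. COX5B, whose row spans an intron, had 7.91% and 4.68% of the density of COX5A with FU, 4.62% and 3.04% in rrp6, and 5.52% and 3.75% in wild type at 100 min. At 40 min its shares were 9.24% and 6.34% with FU, 8.20% and 3.90% in rrp6, and 10.3% and 5.86% in wild type. The spread between replicates was as wide as that between groups. COX5A was called higher in rrp6 at 100 min (7.46 and 7.83, against 3.8 and 3.96 in wild type), and COX5B was not (0.344 and 0.238, against 0.210 and 0.149, at 0.66 with an adjusted p of 0.297, and at -0.67 under quantile scaling).

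**Figure D4:**
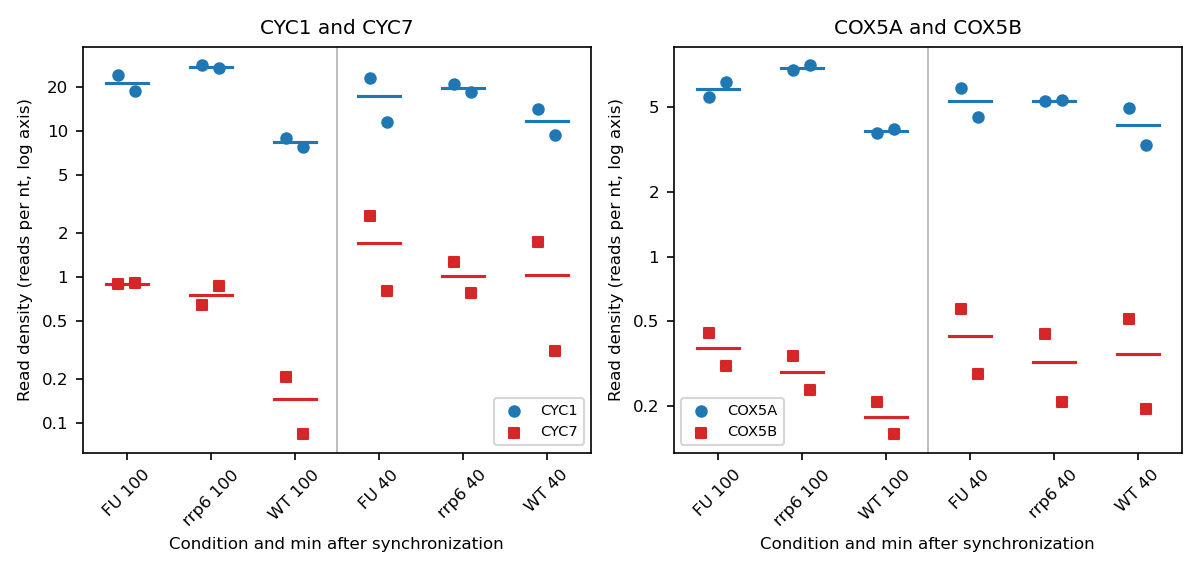
Densities of CYC1 and CYC7 (left) and of COX5A and COX5B (right) on a log axis, with points for the 2 libraries and a bar for the mean of each of the 6 groups. CYC1 lies between 27.2 and 28.2 in rrp6 and between 7.80 and 8.97 in wild type at 100 min, and CYC7 in wild type spreads from 0.310 to 1.73 at 40 min.

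The comparison of 100 min with 40 min within each condition asks how the members differ over the cell cycle time sampled. In wild type, limma called 0 members (2.32% of genes higher and 1.43% lower), and p without adjustment lay under 0.05 for 6 higher and 5 lower (10.3% and 11.6% of genes). The furthest were COX17 at 0.88 (adjusted p = 0.113; 0.692 and 0.621 at 100 min against 0.455 and 0.271 at 40 min), ATP12 at 0.83, CYC7 at -2.38 ± 0.78 (adjusted p = 0.156) and COX5B at -0.80. CYC7 had 0.205 and 0.0832 at 100 min, against 1.73 and 0.310 at 40 min, so both later libraries lay below both earlier ones although the earlier ones differed more than 5-fold. With FU 0 members were called (2.41% of genes higher and 2.9% lower), with p under 0.05 before adjustment for 5 higher and 3 lower (10.6% and 18% of genes). ATP16 was at 0.97 (adjusted p = 0.0756), QCR2 at 0.86, CYC7 at -0.68 and ATP23 at -0.62. In rrp6 0 were called (1.55% of genes higher and 1.01% lower), but before adjustment p lay under 0.05 for 15 higher and 0 lower (10.9% and 10.4% of genes), and 40 of 53 lay above the median gene, with a median of 0.33. COX17 was at 1.07 (adjusted p = 0.0683; 0.596 and 0.445 at 100 min against 0.251 and 0.228 at 40 min), QCR7 at 0.91 (adjusted p = 0.0633), ATP16 at 0.96, COX18 at -0.60 and ATP10 at -0.45. limma-voom on the recovered reads also called 0 in each of these 3 comparisons.

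Under median of ratios scaling COX17 was called higher at 100 min in wild type (3.58% of genes higher and 1.73% lower), ATP16 with FU (3.98% and 1.4%), and QCR7, COX17 and ATP16 in rrp6 (2.27% and 0.838%). Without the libraries of high snoRNA share at 40 min, 0 members were higher and 15 lower in wild type (4.68% and 11.3% of genes), 2 and 3 with FU (5.64% and 8.96%), and 12 and 1 in rrp6 (10.3% and 7.63%). In wild type 1 was called higher without replicate 1 and 1 lower without replicate 2 at 40 min. With FU 1 was called higher without its replicate 1 at 40 min and 2 without either wild-type library at 40 min, and in rrp6 2 were called without any 1 FU or wild-type library at 40 min. The interactions test whether a difference from wild type itself differs between 100 min and 40 min, and limma called 0 members in either, as did limma-voom. The member median of the rrp6 by time interaction was 0.23, and 0.63 without the libraries of high snoRNA share. That fit has 1 wild-type library at 40 min, and its calls are given in the last section. For FU, p before adjustment lay under 0.05 for 0 members higher and 1 lower, and for 2.78% and 5.14% of genes (0.0175% of genes were called higher and 0.175% lower, or 0.0175% and 0.157% under median of ratios scaling, with 0 members), with the extremes CYC7 at 1.70, QCR10 at 0.92, COX10 at -1.03 and COX18 at -0.68. For rrp6 it did for 8 higher and 1 lower, and for 4.56% and 3.55% of genes (0.0175% and 0.122% of genes were called, or 0.0% and 0.14% under median of ratios scaling, with 0 members), with CYC7 at 1.98, CYC1 at 0.95, COX18 at -0.85 and COX10 at -0.68.

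Non-coding transcripts on the opposite strand overlapped 17 of the 53 members, 22 transcripts in all, of which 21 were kept. Some of these overlap each other and can hold the same reads. XUT1693 and SUT777 cover 100% and 99.6% of CYT1, and XUT1341 and SUT609 each cover 100% of COX5B. The counts and medians below take each transcript as annotated. In rrp6 17 of the 21 were called higher and none lower at each time, where 87.5% of all 2744 kept transcripts antisense to a gene were called higher and 0.364% lower at 100 min, and at 40 min 85.3% and 0.182%. With FU 0 were called at either time by limma (1.42% of such transcripts were higher and 0.0364% lower at 100 min, and 3.97% and 0.0% at 40 min). The antisense medians were 0.45 with FU and 1.43 in rrp6 at 100 min, and 0.72 with FU and 1.73 in rrp6 at 40 min. SUT1655 covers COX6 and has the type mSUT, listed apart from the stable unannotated transcripts (SUTs). It had a mean density of 0.329 in rrp6 at 100 min, 7.38% of that of COX6, against 0.00933 in wild type, 0.257% of COX6 (4.03 ± 0.39, adjusted p = 5.67e-05). COX6 itself, a subunit of complex IV, was at 0.30 and not called.

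XUT0514, one of the class sensitive to the cytoplasmic exonuclease Xrn1, overlaps 27.8% of the length of ATP12. Its density, taken over its own length, reached 287% of that of ATP12 in rrp6 at 100 min, against 8.51% in wild type (4.20 ± 0.39, adjusted p = 4.58e-05). XUT0513, which overlaps 28.1% of ATP12, reached 345%, against 12.5% in wild type. ATP12 itself was at -0.42 and not called. Under median of ratios scaling ATP12 was called lower, at -0.89 (adjusted p = 0.0344). SUT641 covers the whole of CYC1 and was higher in rrp6 at 100 min by 2.38 ± 0.34 (adjusted p = 0.000348), as was CYC1. Its mean density there was 0.181, or 0.653% of CYC1 in rrp6, against 0.0251, or 0.299%, in wild type. How far reads of CYC1 contribute to this density was not tested. CUT270, a cryptic unstable transcript that covers ATP14, was higher by 3.36 (0.477 in rrp6 against 0.0358 in wild type), as was ATP14. Members with such a transcript had a median of 0.48 in rrp6 at 100 min (17 genes, 7 called higher, 0 lower), and members without one 0.23 (36 genes, 13 higher, 2 lower). These examples were chosen after their values were seen, and the difference between the groups of genes was not tested.

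**Figure D5:**
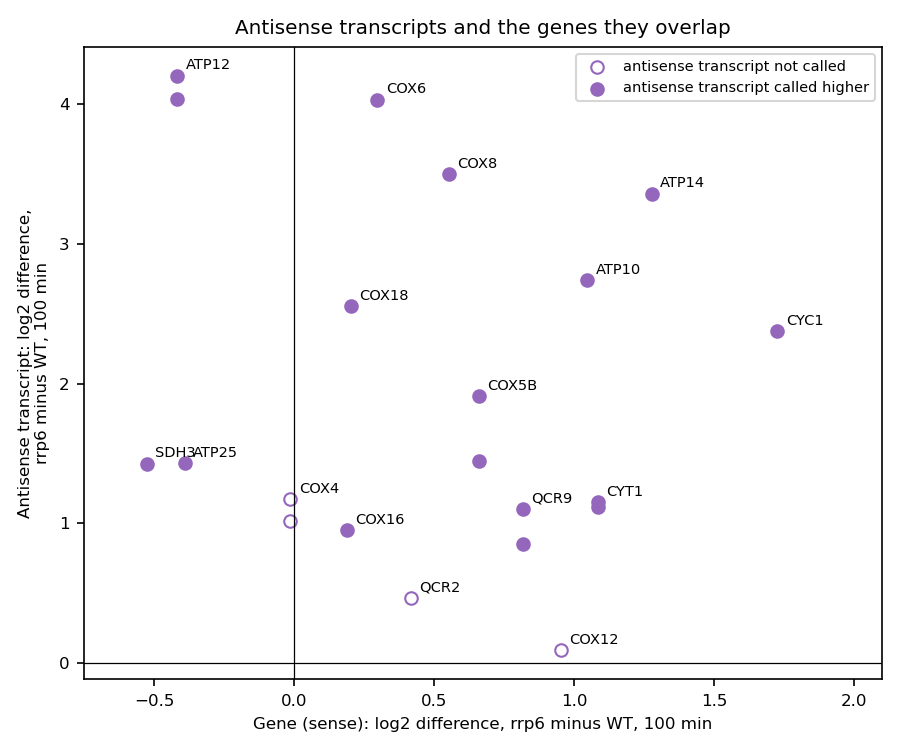
Each point is 1 of the 21 non-coding transcripts antisense to a member, placed by the log2 difference of the member (horizontal) and of the transcript (vertical), rrp6 minus wild type at 100 min, and filled where the transcript was called higher. The transcripts lie between 0.09 and 4.20 while their genes spread on both sides of 0, with COX6 and ATP12 under the highest points.

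Of 64 other pathway genes listed, 61 were in the table: electron donors, carriers of ADP, ATP and phosphate, further assembly and translation factors, ATP synthase subunit e and inhibitors, and regulators. In rrp6 at 100 min 14 of them were called higher and 2 lower, against 34.5% and 5.15% of all genes, and under median of ratios scaling 9 and 9, against 16.1% and 15.6%. The shares among the 61 were thus no larger than over all genes. COA2, an assembly factor of complex IV, was at 1.79 (adjusted p = 0.000107), MOT3, a repressor of hypoxic genes, at 1.92 (adjusted p = 0.000189) and MIG2, a glucose repressor, at 1.38 (adjusted p = 0.0013). Of 12 regulators 6 were called higher: MOT3, MIG2, HAP4, ROX1, HAP1 and PUF3. Under median of ratios scaling 4 of the 12 were called higher, and ROX1 and PUF3 were not. With FU at 100 min 1 was called, COA2 at 1.53 (adjusted p = 0.00743; 1.94% of genes were called higher), and none under median of ratios scaling, where COA2 was at 1.22 (adjusted p = 0.0988). With FU at 40 min limma and limma-voom called 0, with 13 higher at an unadjusted p under 0.05 (22.8% of genes). In rrp6 at 40 min 10 were called higher and 2 lower, led by MOT3 at 1.53, CBP1, which stabilizes the mitochondrial COB mRNA, at 1.06 and TIM11, subunit e of the ATP synthase, at 0.90; under median of ratios scaling the counts were 3 and 9. All genes had 32.3% higher and 5.26% lower there, or 12.3% and 13.3% under median of ratios scaling.

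Between FU and rrp6, 2 were called higher and 7 lower at 100 min (6.38% and 16.4% of all genes) and 3 and 3 at 40 min (4.58% and 9.28%). The leading genes were PET122, a translational activator of mitochondrial COX3, at -2.38, MIG2 at -1.21 and MOT3 at -1.10 at 100 min, and MIG2 at -1.36, CMC2 at 0.97 and MOT3 at -0.82 at 40 min. Over time COA2 (-1.62) and the ADP/ATP carrier AAC1 (-1.25) were called lower at 100 min in wild type, CBP2, a splicing factor of mitochondrial COB, was called higher in rrp6 at 1.35, and none was called with FU. HAP4 was at 0.53 with FU at 100 min (1.86 and 1.65, against 1.42 and 1.02 in wild type), 0.45 with FU at 40 min and 0.65 in rrp6 at 40 min, none called. Subunits encoded in the mitochondrial genome did not all separate rrp6 from wild type at 40 min. COX1, the catalytic subunit of complex IV, had densities of 17.8 and 9.71 with FU, 22.9 and 24.6 in rrp6, and 13.8 and 11.5 in wild type at 100 min. Its densities at 40 min were 24.1 and 14.8 with FU, 31.4 and 33.5 in rrp6, and 22.3 and 13.9 in wild type, with both rrp6 libraries above both of wild type. At 40 min ATP6 (55.7 and 46.4 in rrp6, against 42.6 and 30.3 in wild type) and COB (15.5 and 14.8, against 13.3 and 10.5) did likewise. So did OLI1 (90.8 and 88.2, against 87.3 and 66.7), where 54.1% of all genes kept did. COX2 had 100.4 and 100.5 in rrp6 at 40 min, against 132.6 and 100.2 in wild type, and COX3 had 61.9 and 48.8 in rrp6, against 71.4 and 58.2 in wild type, so these groups overlapped. The groups also overlapped for ATP8 (0.363 and 0.0971 in rrp6, against 0.121 and 0.204 in wild type).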

How the data were processed

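Strand-specific libraries of rRNA-depleted total RNA were sequenced as paired reads of 50 nt, per the labels' protocols. The authors deposited 1 table of signal, a read density per feature and library: reads divided by length, times 1 factor per library that sets gene reads to 14370740. Dividing by these factors gave whole reads for 100% of values at a tolerance of 0.001. TopHat is named per the submitters' processing notes. Whether reads were counted by strand is not stated. Start and end equal R64 for 5757 of 5789 genes and 52 of 53 members.

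A pseudocount of 0.0120173 (10th percentile of the non-zero values) was added and log2 taken. Features at or above it in at least 2 libraries were kept (11485 of 12026, 5725 genes, all 53 members). limma 3.58.1 in R 4.3.3 fitted 1 mean per group over 12 libraries with a variance trend (6 residual degrees of freedom), with two-sided tests, Benjamini-Hochberg adjustment over all features kept, and calls under 0.05. The fit was tested on simulated data. Python 3.11.15, pandas 2.3.3, NumPy 2.4.6, SciPy 1.17.1 and matplotlib 3.10.9 were used.

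Alternatives were pseudocounts 10 times and 0.1 times as large, no filter, median of ratios and quantile scaling, limma-voom on recovered reads, genes alone, a replicate block, each library left out, and, chosen after seeing the data, the 40 min libraries of high snoRNA share left out. Members and lists were chosen with earlier results of these data known. Named are CYC1, CYC7, COX5A, COX5B, HAP4, the extremes of each list in abundance, up to 6 called members per direction (else the 2 furthest) and up to 3 other pathway genes per comparison.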

Additional observations from a re-analysis of the deposited data

How the results depend on the processing

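Every member held at least 31 reads in each library. Replicates were furthest apart with FU and in wild type at 40 min. The causes of the changes below were not tested. Counts from fits with 1 library left out are not set against all genes. Of 297 summary values, 236 stayed within 1.5 times of their count or within the spread of replicates and 61 did not. Of the values of named genes, 705 kept direction and call, 26 lost the call, 36 gained it and 16 turned their sign; with a library left out these were 925, 74, 23 and 22.

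Medians over the members against wild type were 0.091 with FU at 100 min under median of ratios scaling, -0.081 (median of ratios) and -0.11 (quantile) in rrp6 at 100 min, -0.067 and -0.070 with FU at 40 min, and -0.44 and -0.40 in rrp6 at 40 min. Median of ratios scaling called 0 members with FU at 100 min, 10 higher and 14 lower in rrp6 at 100 min, and 2 higher and 17 lower in rrp6 at 40 min. Between FU and rrp6 it called 7 higher at 100 min and 9 at 40 min, and over time 1 in wild type, 1 with FU and 3 in rrp6. Quantile scaling gives all features kept (non-coding transcripts included) 1 distribution in every library. It called 0 with FU at 100 min (0.402% of genes higher and 0.943% lower). In rrp6 it called 6 higher and 13 lower at 100 min (5.34% and 33.7% of genes), and 0 higher and 17 lower at 40 min (4.87% and 32.2%). Between FU and rrp6 it called 11 higher at 100 min (30.1% of genes) and 12 at 40 min (21.8%). Over time it called 2 higher with FU (4.05% of genes) and 7 in rrp6 (6.18%).

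The larger pseudocount called 2 higher and 1 lower between FU and rrp6 at 100 min, 2 higher at 40 min, and 5 over time in rrp6. Without a filter 3 were called between FU and rrp6 at 40 min. limma-voom called 1 lower between FU and rrp6 at 100 min (17.3% of genes lower) and 2 higher at 40 min (4.59% of genes higher). A fit of genes alone called 0 and 0 there and 5 over time in rrp6. Shares of all genes are not given for the fits with another pseudocount, without a filter or of genes alone. Those counts are therefore not set against all genes. Without the 40 min libraries of high snoRNA share the medians were -0.27 in rrp6 at 40 min and 0.63 in the rrp6 by time interaction. The calls were then 19 higher and 1 lower with FU at 100 min, 5 lower in rrp6 at 100 min, 17 lower in rrp6 at 40 min, 5 higher and 8 lower between FU and rrp6 at 100 min and 21 higher and 1 lower at 40 min. Over time they were 15 lower in wild type, 2 higher and 3 lower with FU, 12 higher and 1 lower in rrp6, and 3 higher in the rrp6 by time interaction; that fit has 1 library with FU and 1 of wild type at 40 min, assumed to vary like the other groups.

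Over 15 pairs of groups the deviations of same-numbered replicates correlated from -0.356 to 0.869, with 9 pairs over 0.1. All 6 pairs among the FU and wild-type groups were over 0.1 (0.169 to 0.869), and the pairs that fell below all include an rrp6 group, so pairing was not shown for the whole design. A fit with the replicate number as a block called 5 higher with FU at 100 min (CYC1 and CYC7 gained; 4.14% of genes higher), 22 higher and 2 lower in rrp6 at 100 min (COX5B and QCR8 gained; 39.6% and 6.38%), 1 higher with FU at 40 min (COX7; 4.98%), and 7 higher and 4 lower in rrp6 at 40 min (CYC1, COX11 and COX17 gained; 37.3% and 5.97%). Between FU and rrp6 the block gave 2 higher and 1 lower at 100 min (7.77% and 19.7% of genes) and 7 higher at 40 min (6.43%), and over time 1 in wild type (3.56%), 1 with FU (4.17%) and 2 in rrp6 (2.62%), with 0 in the interactions.

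With each library left out in turn, calls against wild type ranged over 0 to 6 higher and 0 lower with FU at 100 min (median 0.37 to 0.48), 10 to 21 and 0 to 4 in rrp6 at 100 min (0.33 to 0.40), 0 and 0 with FU at 40 min (0.0049 to 0.67), and 2 to 13 and 0 to 8 in rrp6 at 40 min (-0.27 to 0.33). Between FU and rrp6 they ranged over 0 to 2 higher and 0 to 2 lower at 100 min (-0.078 to 0.084) and 0 to 4 and 0 to 3 at 40 min (0.063 to 0.41). Over time they ranged over 0 to 1 and 0 to 1 in wild type (-0.28 to 0.24), 0 to 2 and 0 with FU (-0.12 to 0.18) and 0 to 2 and 0 in rrp6 (0.30 to 0.35). In the interactions they were 0 throughout (-0.21 to 0.44 for FU and -0.12 to 0.63 for rrp6).

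Signs of single genes turned as follows. With FU against wild type at 40 min, COX5A was -0.014 and COX5B -0.035 under median of ratios, and COX5B -0.13 under quantile scaling. With a library left out there, COX5B ranged from -0.34 (without wild-type replicate 2) to 1.00, CYC7 from -0.26 (without wild-type replicate 2) to 2.18, and ATP16 from -0.55 to 0.17 (without FU replicate 2). In rrp6 at 100 min COX5B was -0.67 under quantile scaling. In rrp6 at 40 min, under median of ratios, COX7 was -0.022, CYC7 -0.066 and COX5A -0.094, and CYC7 was -0.28 under quantile scaling. With a library left out CYC7 ranged from -0.80 (without wild-type replicate 2, as without the libraries of high snoRNA share) to 1.63 and COX5B from -0.73 to 0.61 (without wild-type replicate 1).

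Between FU and rrp6 at 40 min COX5A was 0.080 under median of ratios and 0.077 under quantile scaling. With a library left out it ranged from -0.25 to 0.20 and CYC1 from -0.76 to 0.24, both highest without FU replicate 2, as without the libraries of high snoRNA share. CYC7 ranged from -0.29 (without FU replicate 1) to 1.38, and COX5B from -0.11 (without rrp6 replicate 2) to 0.90. Over time, COX5A in wild type ranged from -0.36 to 0.22 (without replicate 1 at 40 min). With FU, CYC7 ranged from -1.52 to 0.16 and COX5B from -0.60 to 0.36, both highest without replicate 1 at 40 min, and COX5B was 0.078 under quantile scaling. CYC1 ranged from -0.13 to 0.88 and COX5A from -0.018 to 0.43, both lowest without replicate 2 at 40 min, as without the libraries of high snoRNA share. In rrp6 COX5B ranged from -0.59 to 0.43 (without replicate 1 at 40 min), and in the FU by time interaction COX5A from -0.014 (without wild-type replicate 1 at 40 min) to 0.57.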
